A study of Homo sapiens with 6 samples.

Results

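Aminoacyl-tRNA synthetases are the enzymes that join each amino acid to its matching tRNA. The genes described here are 35 synthetase genes and XPOT, which encodes the exportin that carries tRNA out of the nucleus, 36 of the 22503 gene rows of the table. They were taken by name from a list, with 19 cytosolic and 16 mitochondrial enzymes, and all 36 were found under their current symbols and passed the filter on low counts. The cells were CAL-27, an established line of tongue squamous cell carcinoma, labelled as keratinocytes. Exposure was to DHA or its solvent DMSO for 48 h, in 3 libraries each, and no other treatment or genotype is given. DHA is read here as dihydroartemisinin, because the series is titled for artemisinin derivatives, with no dose in the labels. All libraries come from 1 cell line, and since separate cultures are not stated, the p-values describe the spread between these libraries only, which may be technical.

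In human cells the cytosol and the mitochondrion have separate sets of tRNAs, and for most amino acids a separate nuclear gene encodes the enzyme of each compartment. The names of the mitochondrial genes end in 2. GARS1 and KARS1 serve both compartments and are counted with the cytosolic set. Several cytosolic enzymes are held together in the multisynthetase complex. Many cytosolic synthetase genes, and XPOT, are known targets of ATF4, the transcription factor that is made when phosphorylation of eIF2α slows general translation in the integrated stress response. Mitochondrial synthetases feed the translation of the respiratory chain subunits encoded in mitochondrial DNA and are not known as a group for this regulation.

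The 6 libraries held 35980670 to 38120267 counts over genes. Values are given as CPM, the read counts of a gene relative to the library total after scaling by trimmed mean of M-values. All 8 keratinocyte markers examined were at 1 CPM or more in every library, while this held for 1 of 6 fibroblast, 2 of 6 leukocyte and 1 of 4 endothelial markers; PTPRC, CD3E and KDR have no values here. The summed keratinocyte markers were at 4784 to 6429 CPM in DMSO against 3499 to 4065 CPM under DHA, with 6429 CPM in DMSO 1 alone and 4835 and 4784 CPM in DMSO 2 and DMSO 3. Singly they went both ways, with log2 fold changes from -1.15 to 0.75, of which 3 of 8 were above 0. By edgeR 1 was called higher (KRT6A, named after its value was seen) and 0 lower, while DESeq2 called 1 higher and 2 lower. At an unadjusted p under 0.05 in edgeR, 2 were higher and 4 lower, where 9.59% and 10.7% of all genes were. The summed fibroblast markers were at 13.5 to 23.5 and 9.16 to 13.2 CPM, the leukocyte markers at 44.0 to 46.5 and 34.7 to 47.4 CPM, and the endothelial markers at 16.4 to 26.5 and 15.4 to 18.6 CPM. Of those tested, edgeR called 0 of 4 fibroblast, 1 of 2 leukocyte and 0 of 2 endothelial markers, the 1 being lower, where 1.60% of all genes were. At an unadjusted p under 0.05, 3 fibroblast, 1 leukocyte and 1 endothelial marker were lower and 0 higher. The part of these shifts in the results was not tested, and in bulk RNA fewer cells of a type cannot be told apart from less RNA per cell. Neither group was uniform. The mean chi-square per gene between libraries was 79.7 and 82.8 for DMSO 1 against DMSO 2 and DMSO 3, 6.67 between those 2, and 126 between DHA 2 and DHA 3, with DHA 1 at 41.8 and 44.2 from them. DMSO 1 was the lowest of the 6 libraries for 16 of the 19 cytosolic and 10 of the 16 mitochondrial genes, against 27.3% of all genes tested. Leaving it out lowered the log2 fold change of 17 of the 19 cytosolic and 14 of the 16 mitochondrial genes, and values that moved by over 1.5 times in the cytosolic set are given both ways. Its values are drawn as triangles in the plot of CPM by library.

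The comparison of DHA with DMSO asks how the synthetase transcripts of drug-exposed cells differ from those of solvent controls. Under DHA, the genes of tryptophanyl-tRNA synthetase (WARS1, 1.77-fold) and glycyl-tRNA synthetase (GARS1, 1.59-fold) rose, and no member fell. The other 17 cytosolic genes and XPOT did not pass the threshold of an adjusted p of 0.05, although 18 of the 19 cytosolic genes had a log2 fold change above 0. None of the 16 mitochondrial genes passed, in edgeR, DESeq2 or limma-voom, and 1 of them (CARS2) had an unadjusted p under 0.05. With p-values from the quasi-likelihood test of edgeR, adjusted over all genes, 2 of 19 cytosolic genes were called higher, where 1.10% of the 14649 genes tested were; 0 of 35 synthetase genes were called lower, where 1.60% of all genes were and 2.70% were called in either direction. DESeq2 called 4 of the 19 higher (MARS1 and SARS1 in addition) and 0 lower, where it called 3.09% of all genes higher and 4.66% lower. limma-voom called WARS1 and GARS1 higher, where it called 1.01% of all genes higher and 1.48% lower. The median log2 fold change was 0.28 over the cytosolic set, 0.07 over the mitochondrial set and 0.00 over all genes.

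**Figure D1:**
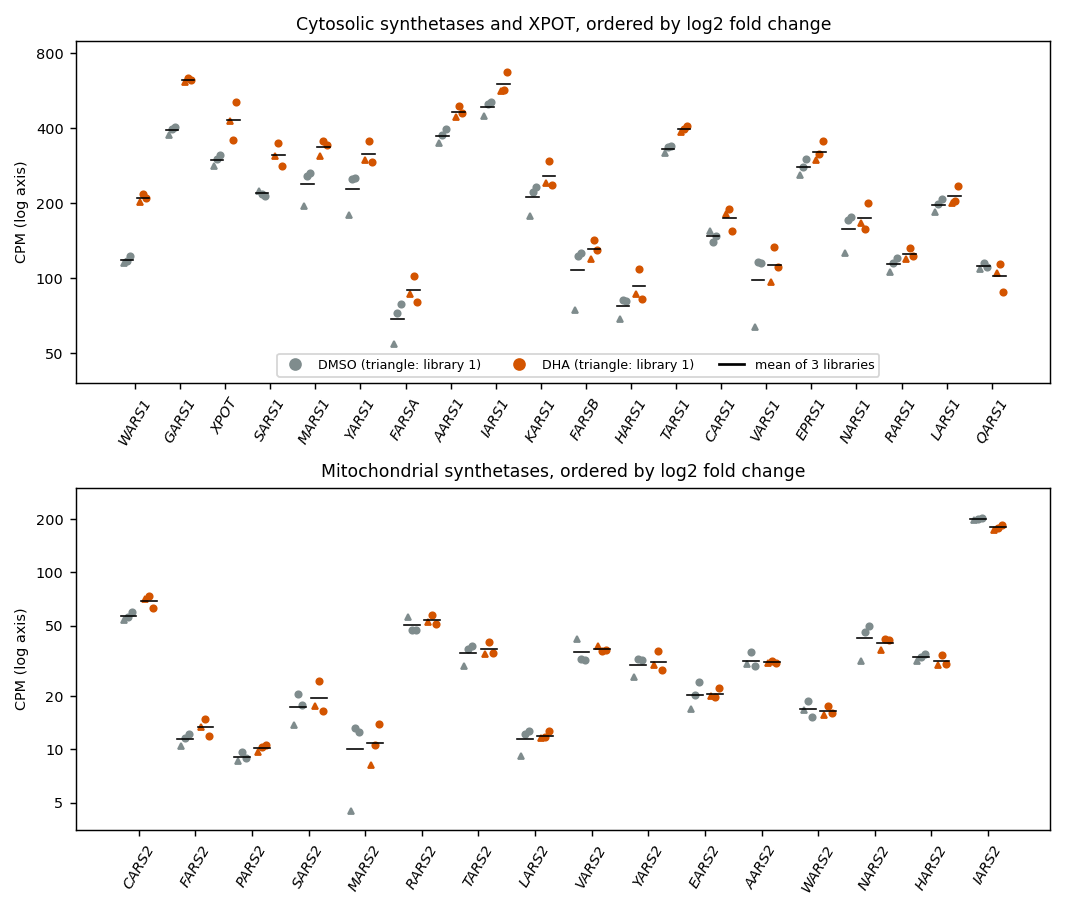
CPM (log axis) of each gene in the 3 DMSO and 3 DHA libraries, with a line at each group's mean, for cytosolic synthetases with XPOT and for mitochondrial synthetases; triangles mark library 1 of each group. WARS1 and GARS1 have groups far apart and close replicates, while the groups of most mitochondrial genes overlap.

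WARS1, which charges tRNA with tryptophan and is also a known interferon-induced gene, lies on chromosome 14 at 100333790 to 100376327 on the minus strand (GRCh38.p14). It was at 116, 118 and 123 CPM in DMSO and at 204, 217 and 210.4 CPM in DHA. The groups were far apart, and every DHA library stood above every DMSO library. WARS1 rose from 119 ± 4.08 to 210.4 ± 6.94 CPM (SD, n = 3), which is 0.82 ± 0.11 on the log2 scale (SE; edgeR, adjusted p = 0.0125). The call was lost without DMSO 2 (edgeR, adjusted p = 0.0684) and without DHA 1 (adjusted p = 0.0694), with log2 fold changes of 0.82 and 0.85. GENCODE 29 names a WARS1 pseudogene, WARSP1, and a GARS1 pseudogene, GARSP1, with which reads could be shared. It also names pseudogenes of other members, among them AARS1, KARS1 and XPOT. Part of the exon sequence of WARS1, 272 of 4245 bases in GENCODE 29, is shared with WDR25 on the opposite strand, and the sources used here do not say whether counting used the strand. Of the 12 genes of the interferon list, 0 rose and 2 fell, the guanylate-binding protein gene GBP2 by 0.88 and the antiviral gene IFIT1 by 0.78 on the log2 scale (edgeR, adjusted p = 0.0416 and 0.0293). Among all genes 1.60% fell. At an unadjusted p under 0.05 in edgeR, 2 genes of the list were higher in DHA and 3 lower, where 9.59% and 10.7% of all genes were. Log2 fold changes in the list ran from -0.88 to 0.61. GBP2 was highest in DMSO 1, at 54.6 CPM, and lost its call in each of the 6 fits that left out 1 library, with a log2 fold change of -0.67 without DMSO 1 (edgeR, adjusted p = 0.0859). IFIT1 kept its call in 3 of the 6 and lost it without DMSO 2, DMSO 3 or DHA 1 (edgeR, adjusted p = 0.101, 0.103 and 0.143).

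GARS1, the glycine enzyme of both cytosol and mitochondria, lies on chromosome 7 at 30594735 to 30634033 on the plus strand. It was at 377, 399 and 406 CPM in DMSO and at 617, 636 and 624 CPM in DHA. The groups did not overlap, and the replicates of each group lay within a narrow range. GARS1 rose from 394 ± 14.9 to 625 ± 9.55 CPM (0.67 ± 0.11 as log2 fold change; edgeR, adjusted p = 0.0211). Its call was lost without DMSO 2 (edgeR, adjusted p = 0.101), without DMSO 3 (0.0756) and without DHA 1 (0.129), while the log2 fold change stayed between 0.63 and 0.69 with any library left out. Per kilobase of its longest coding transcript, GARS1 had the highest level of all 35 synthetases in both groups, at 150 CPM per kb in DMSO and 237 CPM per kb in DHA. The divergent non-coding gene GARS1-DT, which shares 99 exon bases with it in GENCODE 29, was at 16.9 ± 2.79 CPM in DMSO against 11.03 ± 0.973 CPM under DHA (-0.62 ± 0.17 as log2 fold change; edgeR, adjusted p = 0.0894; looked up after the values were seen).

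SARS1, the serine enzyme, was at 225, 219 and 214 CPM in DMSO and at 311, 349 and 283 CPM in DHA. All 3 DHA libraries stood above the DMSO libraries, with a wider spread among them. Its log2 fold change of 0.52 ± 0.12 missed the threshold (edgeR, adjusted p = 0.0621) and passed in DESeq2 (adjusted p = 0.00700) and without DHA 3 (edgeR, adjusted p = 0.0322). The gene spans chromosome 1 from 109213893 to 109238182.

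MARS1, the methionine enzyme of the multisynthetase complex, was at 195, 258 and 264 CPM in DMSO and at 309.5, 355 and 343 CPM in DHA. The groups did not overlap, and DMSO 1 was the lowest. Its log2 fold change was 0.49 ± 0.15 (edgeR, adjusted p = 0.112, 0.0446 by DESeq2), and 0.36 without DMSO 1. MARS1 shares 62 of its 2905 exon bases with DDIT3, the gene of the stress factor CHOP on the opposite strand, which rose from 27.6 ± 1.10 to 90.8 ± 13.0 CPM (edgeR, adjusted p = 0.00207). Reads from the 62 shared bases cannot be assigned to a gene without strand. YARS1, the tyrosine enzyme, also had a low DMSO 1, at 228 ± 41.7 CPM in DMSO against 316 ± 34.6 CPM under DHA, and its log2 fold change of 0.47 became 0.33 without DMSO 1 (edgeR, adjusted p = 0.151 and 0.264).

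XPOT was at 281, 300.4 and 313 CPM in DMSO and at 430.2, 358 and 513 CPM in DHA. Each DHA library was above the DMSO libraries, and DHA 3 was the highest. The log2 fold change of 0.54 ± 0.15 missed the threshold (edgeR, adjusted p = 0.0929) and passed in DESeq2 (adjusted p = 0.0240) and without DHA 2 (edgeR, adjusted p = 0.0475).

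**Figure D2:**
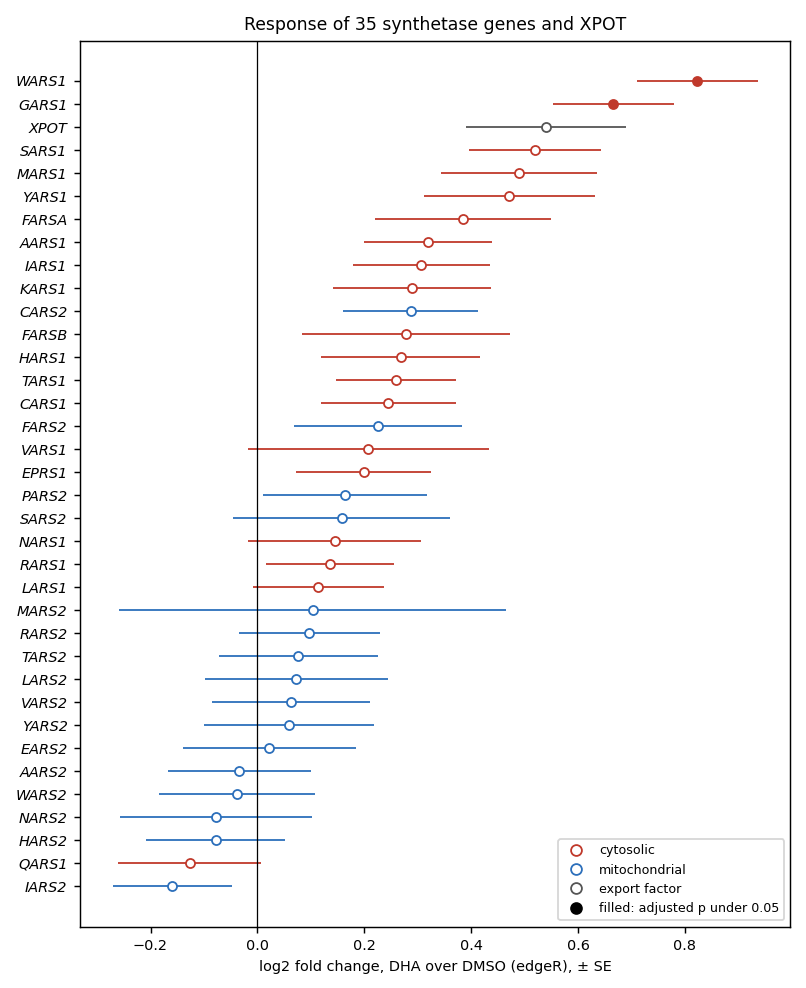
Log2 fold change of DHA over DMSO with its standard error (edgeR, n = 3 libraries a group) for 35 synthetase genes and XPOT; filled points passed an adjusted p of 0.05. The 2 filled points are WARS1 at 0.82 and GARS1 at 0.67, and QARS1 is the only cytosolic gene below 0.

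IARS1, the isoleucine enzyme and the member with the highest mean CPM in DMSO, was at 450.3, 500.5 and 509 CPM in DMSO and at 564, 569 and 672 CPM in DHA. Its groups did not overlap, yet the log2 fold change of 0.31 ± 0.13 did not pass (edgeR, adjusted p = 0.221). The other cytosolic genes lay between 0.38 for FARSA, the catalytic subunit of the phenylalanine enzyme (0.24 without DMSO 1), and -0.13 for QARS1, the glutamine enzyme. QARS1 was at 112 ± 3.02 CPM in DMSO against 102 ± 13.5 CPM under DHA, with DHA 3 alone at 87.8 CPM (edgeR, adjusted p = 0.607). FARSB, the partner subunit of FARSA, had a log2 fold change of 0.28, and 0.07 without DMSO 1. AARS1, the alanine enzyme, was at 375 ± 24.4 and 467 ± 24.5 CPM, and TARS1, the threonine enzyme, at 332 ± 10.3 and 397 ± 10.2 CPM, both with groups that did not overlap and neither past the threshold (edgeR, adjusted p = 0.181 and 0.235). VARS1, the valine enzyme, had the widest DMSO spread of the set relative to its level, from 64.0 CPM in DMSO 1 to 116 CPM in DMSO 2, and its log2 fold change went from 0.21 to -0.026 without DMSO 1. The lysine enzyme KARS1 had a log2 fold change of 0.29 (0.18 without DMSO 1), the histidine enzyme HARS1 of 0.27, the cysteine enzyme CARS1 of 0.24 and EPRS1, the fused enzyme for glutamate and proline, of 0.20. The asparagine enzyme NARS1, the arginine enzyme RARS1 and the leucine enzyme LARS1 had values of 0.14, 0.14 and 0.11, which became 0.0045, 0.085 and 0.069 without DMSO 1.

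Of the 19 cytosolic genes, 11 had groups that did not overlap with DHA higher, where 14.3% of all genes did, and 9 had an unadjusted p under 0.05 in that direction, where 9.59% of all genes did. Without DMSO 1, 17 of the 19 had a log2 fold change above 0, 5 had an unadjusted p under 0.05, and the median was 0.23. Of all 14886 genes tested in that fit, 7620 had a log2 fold change above 0. An unadjusted p under 0.05 with DHA higher was found for 1164 of them. Taking each gene against its own DMSO mean on the log2 CPM scale, the median of the set stood at 0.22 in DHA 1, 0.44 in DHA 2 and 0.31 in DHA 3, and at -0.11, 0.042 and 0.08 in DMSO 1 to 3. The summed transcripts of the 19 genes went from 3966 ± 325 CPM in DMSO to 5067 ± 216 CPM in DHA, 1.28 times the DMSO level. Among the 7 members of the multisynthetase complex the median log2 fold change was 0.20, with 0 called by edgeR and 3 without overlap, and among the other 12 it was 0.30, with 2 called and 8 without overlap. The 9 cytosolic genes of class I and the 9 of class II, as synthetases are divided by the fold of their catalytic site, had medians of 0.25 and 0.29, with 1 called in each; EPRS1 carries a domain of each class. Without DMSO 1 the medians were 0.14 in the complex and 0.26 outside it. For the classes they were 0.25 in class I and 0.23 in class II, so that their order turned. None of these subgroup differences was tested.

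**Figure D3:**
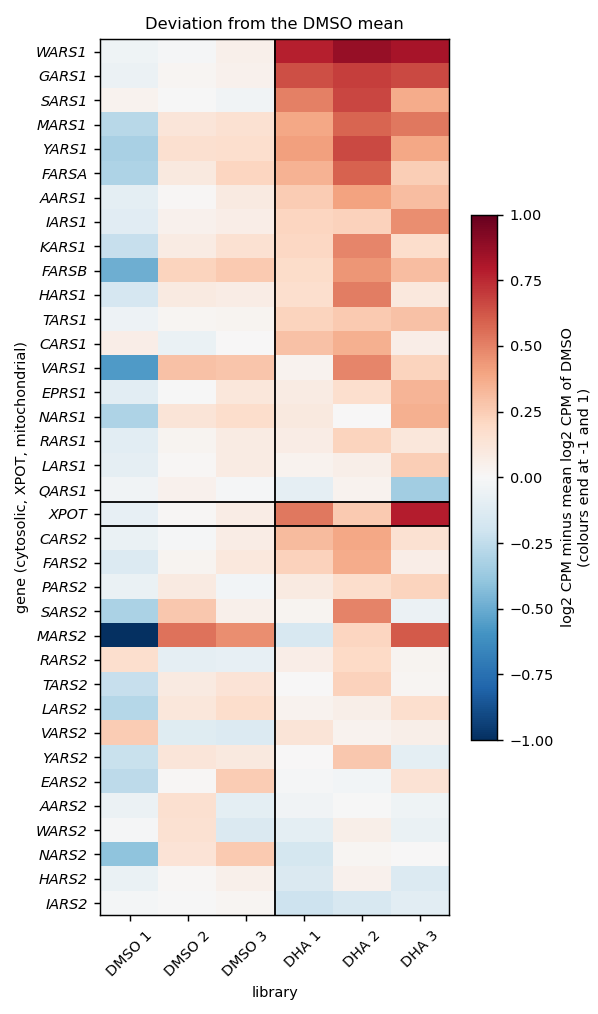
Log2 CPM of each gene in each of the 6 libraries minus its mean over the 3 DMSO libraries; rows are ordered by log2 fold change within the cytosolic set, XPOT and the mitochondrial set, and colours end at -1 and 1. WARS1 and GARS1 are evenly high in the 3 DHA libraries, whereas DMSO 1 is low for MARS2, VARS1 and FARSB.

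No mitochondrial gene was called in either direction. CARS2, the cysteine enzyme, was at 54.2, 56.1 and 59.7 CPM in DMSO and at 70.7, 73.9 and 62.8 CPM in DHA. Its groups did not overlap, but the log2 fold change of 0.29 ± 0.13 did not pass (edgeR, adjusted p = 0.240). FARS2, the phenylalanine enzyme, was at 10.4, 11.6 and 12.3 CPM in DMSO and at 13.4, 14.8 and 11.96 CPM in DHA, and its groups overlapped. PARS2, the proline enzyme, was at 8.65, 9.671 and 8.91 CPM in DMSO and at 9.672, 10.3 and 10.6 CPM in DHA, so that the groups all but touched (0.16 as log2 fold change; edgeR, adjusted p = 0.559). IARS2, the isoleucine enzyme, was at 197.7, 200.3 and 203 CPM in DMSO and at 173, 179 and 186 CPM in DHA. It was the mitochondrial gene with the lowest log2 fold change, -0.16 ± 0.11, and the 1 member whose DHA libraries all lay below the DMSO libraries, where 13.5% of all genes did so (edgeR, adjusted p = 0.434).

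The remaining 12 mitochondrial genes had log2 fold changes from -0.08 (HARS2, the histidine enzyme) to 0.16 (SARS2, the serine enzyme; 0.015 without DMSO 1), all with overlapping groups. Without DMSO 1, 5 of them changed sign (EARS2, LARS2, MARS2, TARS2 and YARS2). The widest error belonged to MARS2, the methionine enzyme, at 4.51, 13.2 and 12.6 CPM in DMSO and 8.13, 10.6 and 13.9 CPM in DHA. DMSO 1 was lowest, and without it the log2 fold change of MARS2 went from 0.10 to -0.25. Reads of SARS2 are the least certain, since 1492 of its 2215 exon bases are shared with another annotated gene on the same strand. Over the 16 genes, 11 had a log2 fold change above 0, where 50.3% of all genes did, and 6 without DMSO 1, when the median became -0.046. In the fit without DMSO 1, 7620 of all 14886 genes had a log2 fold change above 0. Their summed transcripts were at 612 ± 28.6 CPM in DMSO against 613 ± 24.2 CPM under DHA.

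The cytosolic median exceeded the mitochondrial one by 0.21 on the log2 scale. With each gene taken against its own DMSO mean, the cytosolic median stood above the mitochondrial median by 0.21 in DHA 1, 0.32 in DHA 2 and 0.28 in DHA 3. The same difference was -0.0061, -0.049 and 0.015 in DMSO 1 to 3, where each gene averages 0 by construction. Without DMSO 1 the difference of the medians was 0.28. Since the genes were grouped with results of these data known, no test over the sets was made. Per kilobase of the longest coding transcript, levels in DMSO ran from 22.1 (HARS1) to 150 CPM per kb (GARS1) in the cytosolic set, with a median of 53.5, and from 2.40 (LARS2, the leucine enzyme) to 56.3 CPM per kb (IARS2) in the mitochondrial set, with a median of 8.59. In DHA the medians were 64.4 and 9.27 CPM per kb. These levels depend on the transcript model chosen for each gene.

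The ratio of counts between the cytosolic and the mitochondrial gene for the same amino acid does not depend on library scaling. It could be formed for 17 pairs, of which EPRS1 and FARS2 enter 2 each. WARS1 over WARS2 was 6.93, 6.31 and 8.12 in DMSO and 12.96, 12.4 and 13.1 in DHA, so the ratio was higher in every DHA library. IARS1 over IARS2 was 2.28, 2.498 and 2.503 in DMSO and 3.25, 3.18 and 3.61 in DHA, with the numerator higher and the denominator lower. YARS1 over YARS2 was 7.002, 7.73 and 7.88 in DMSO and 9.95, 9.88 and 10.5 in DHA. AARS1 over AARS2, HARS1 over HARS2 and FARSA over FARS2 were also higher in every DHA library, so 6 of 17 pairs did not overlap, 0 of them in the other direction. The share of other gene pairs without overlap was not computed, so this count has no background to be read against. The FARSA pair was separated by the smallest gap, from 6.39 in DMSO 3 to 6.43 in DHA 1. In 16 of the 17 pairs the mean log2 ratio was higher in DHA, by a median of 0.18, and the exception was CARS1 over CARS2, at 1.38 ± 0.11 in DMSO and 1.34 ± 0.03 in DHA on the log2 scale. An exact two-sided permutation test of 3 against 3 libraries cannot go below p = 0.10, so no pair was tested alone.

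**Figure D4:**
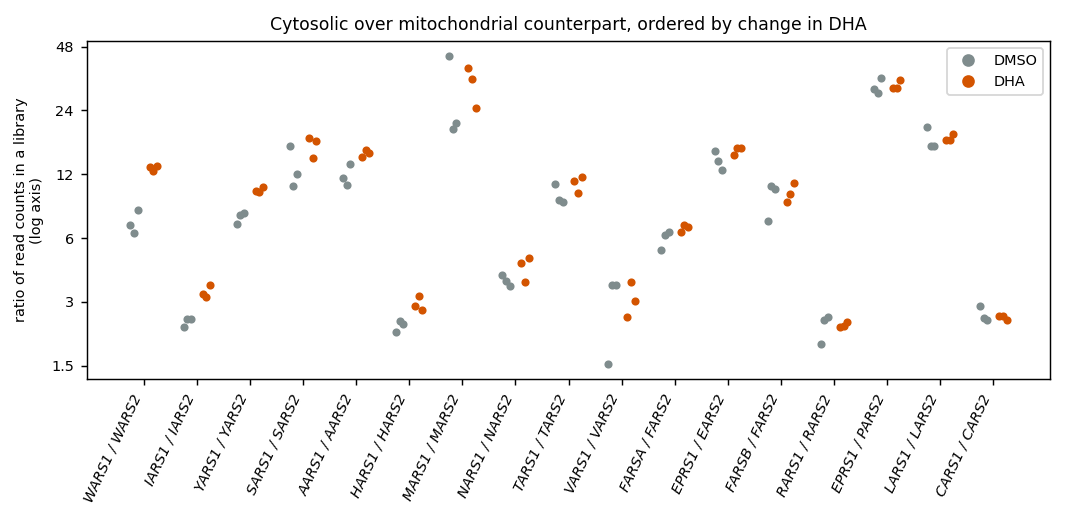
Ratio of read counts of the cytosolic over the mitochondrial gene for the same amino acid in each library (log axis), for 17 pairs ordered by the change in DHA. The WARS1 pair shows the widest gap between the groups, and the MARS1 and VARS1 pairs show DMSO 1 apart from the other DMSO libraries.

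HARS1 and HARS2 lie head to head on chromosome 5, with 84 bases between their RefSeq starts, and share 402 exon bases on opposite strands. HARS1 was at 68.6, 81.9 and 81.3 CPM in DMSO and at 86.7, 109.5 and 83.0 CPM in DHA, while HARS2 was at 31.8, 33.5 and 34.5 CPM and at 30.1, 34.2 and 30.2 CPM. The groups of HARS1 did not overlap, those of HARS2 did, and neither gene passed (edgeR, adjusted p = 0.328 and 0.758). CARS1 overlaps an antisense gene, CARS1-AS1, that was found at 0.268 ± 0.133 CPM in DMSO against 1.02 ± 0.317 CPM under DHA (edgeR, adjusted p = 0.0610; looked up after the values were seen).

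The promoter stretches below are shown because ATF4 acts with C/EBP partners at an element whose core was searched here as TGATGNAAN, on both strands (NTTNCATCA in reverse). RefSeq promoter windows of 300 bases, from 250 before a transcript start to 50 from it, were matched for 31 of the 36 genes, 9 of them with several starts. The motif was found in 7 of 16 cytosolic genes with a window, in 1 of 14 mitochondrial genes and not in XPOT. It was found in 4.45% of all 27305 genes of the promoter table, in 2.94% of the genes tested by edgeR that had a window, and in 7 of 22 genes of the integrated stress response list. Capitals mark the motif as it reads on the gene's strand, and positions count from 1 at the transcript start with negative numbers before it (GRCh38.p14).
AARS1 (chr16:70289651-70289730, minus strand, motif at -188 to -180): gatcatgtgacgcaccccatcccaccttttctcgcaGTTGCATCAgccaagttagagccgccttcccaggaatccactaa
CARS1 (chr11:3057404-3057483, minus strand, motif at -3 to 6): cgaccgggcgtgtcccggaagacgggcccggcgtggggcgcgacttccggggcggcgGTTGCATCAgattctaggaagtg
IARS1 (chr9:92293678-92293757, minus strand, motif at -14 to -6): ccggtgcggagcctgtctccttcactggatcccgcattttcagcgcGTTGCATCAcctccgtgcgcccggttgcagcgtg
MARS1 (chr12:57488008-57488087, plus strand, motif at -5 to 4): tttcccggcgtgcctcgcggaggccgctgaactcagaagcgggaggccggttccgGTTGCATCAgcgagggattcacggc
NARS1 (chr18:57621809-57621888, minus strand, motif at 15 to 23): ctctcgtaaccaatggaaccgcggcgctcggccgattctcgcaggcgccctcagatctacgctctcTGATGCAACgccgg
GARS1 (chr7:30594834-30594863, plus strand, motif at -34 to -26): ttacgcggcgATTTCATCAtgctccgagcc
TARS1 (chr5:33440956-33440985, plus strand, motif at 2 to 10): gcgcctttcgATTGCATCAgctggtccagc
YARS2 (chr12:32756051-32756130, minus strand, motif at -197 to -189): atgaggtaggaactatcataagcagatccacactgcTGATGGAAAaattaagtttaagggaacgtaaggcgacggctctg

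The same 9 bases, GTTGCATCA, occur in AARS1, CARS1, IARS1 and MARS1, and NARS1 holds their reverse complement. The starts used for GARS1 and TARS1 lie 143 and 269 bases inside the outermost RefSeq start of the gene, so other transcripts run through those windows. The 7 cytosolic genes with the motif had a median log2 fold change of 0.31, from 0.14 (NARS1) to 0.67 (GARS1), with 1 called. Without DMSO 1 that median was 0.27. The 9 with a window and no motif had a median of 0.28 (0.18 without DMSO 1), from -0.13 (QARS1) to 0.82 (WARS1), also with 1 called. WARS1 and SARS1 had 2 windows each and no match in them, which says only that these letters are not in those windows. A match is a description of the sequence and not a measured site.

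Beyond the synthetases, the genes of the other steps of tRNA charging were mostly without a call. Of the 3 scaffold genes of the multisynthetase complex 0 passed in edgeR and 1, AIMP2, passed in DESeq2 (adjusted p = 0.0393). AIMP2 was at 46.5, 85.8 and 81.2 CPM in DMSO and at 105, 136 and 108 CPM in DHA (0.71 ± 0.22 as log2 fold change; edgeR, adjusted p = 0.125). DMSO 1 was again the lowest, the groups did not overlap, and the log2 fold change was 0.48 without DMSO 1. EEF1E1 had a log2 fold change of 0.55 ± 0.24 and AIMP1 of 0.13 ± 0.14, which became 0.31 and 0.052 without DMSO 1. Of the 4 genes that amidate or formylate charged mitochondrial tRNA, 0 passed, with log2 fold changes from -0.15 to 0.35 and a median of 0.20 that became 0.10 without DMSO 1 and 0.12 without DHA 2. The mitochondrial translation factors gave 0 calls of 10, with a median of 0.09, and 0 had an unadjusted p under 0.05. Their median deviation from the DMSO mean was -0.16 in DMSO 1, 0.078 in both DMSO 2 and DMSO 3, and 0.062, 0.17 and 0.0024 in DHA 1 to 3, and without DMSO 1 the median log2 fold change was 0.039. The cytosolic elongation and release factors gave 0 calls of 9, with a median of 0.25. At an unadjusted p under 0.05 in edgeR there were 3, all higher in DHA, where 9.59% of all genes were. The median was 0.11 without DHA 2 and 0.38 without DHA 3.

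Genes of tRNA processing and modification gave 0 calls of 34 tested, with a median of 0.20. At an unadjusted p under 0.05 in edgeR there were 6, all higher in DHA, where 9.59% of all genes were. DESeq2 called 2 of the 34 higher, where it called 3.09% of all genes higher. The median deviation of the tRNA processing genes was -0.35 in DMSO 1, 0.17 and 0.20 in DMSO 2 and DMSO 3, and 0.18, 0.41 and 0.15 in DHA 1 to 3. The median log2 fold change of 0.20 was 0.052 without DMSO 1 and 0.099 without DHA 2. By edgeR 1.10% of all genes rose and 1.60% fell. Of the 18 genes of tRNA gene transcription, 1 rose and 0 fell, with a median of 0.20. It was POLR3C, a subunit of RNA polymerase III, which rose from 42.2 ± 2.19 to 63.5 ± 4.37 CPM (0.59 ± 0.12 as log2 fold change; edgeR, adjusted p = 0.0416). That call was lost with upper-quartile scaling (edgeR, adjusted p = 0.0531) and in 5 of the 6 fits that left out 1 library, all but that without DHA 3, with adjusted p from 0.0824 without DHA 2 to 0.190 without DHA 1 in edgeR, and 0.0916 without DMSO 1. The integrated stress response list held 25 other genes, of which 12 rose and 0 fell, where 1.10% of all genes rose and 1.60% fell. The median of the list was 0.67, and 5 of its genes rose without DHA 1 and 6 without DMSO 2. Over all genes, the calls in either direction went from 395 to 46 without DMSO 2. With any 1 library left out they ran from 16 to 789. Its leading genes were GDF15, a stress cytokine gene that rose by 1.75 on the log2 scale, and DDIT3, described above.

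TARS3, a second cytosolic threonine enzyme outside the list of members and looked up after the values of the others were seen, was at 8.91 ± 0.850 CPM in DMSO against 7.43 ± 0.271 CPM under DHA (-0.26 ± 0.16 as log2 fold change; edgeR, adjusted p = 0.379).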

How the data were processed

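Total RNA of 6 CAL-27 libraries was sequenced. The deposited values are raw read counts of each gene in whole numbers, made by the authors with fastp, HISAT2 and HTSeq on GRCh38, per the submitters' processing notes, which also name R 3.2.0; those sources name no settings, annotation or strandedness. Reads in overlapping or near-identical genes may be lost or split. Columns were matched to libraries through the labels.

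Genes were kept by filterByExpr (minimum count 10; 14649 kept), scaled by TMM and tested with the quasi-likelihood F test of edgeR 4.0.16, two-sided, with Benjamini-Hochberg adjustment over all genes kept and a threshold of 0.05. Standard errors were derived from the log2 fold change and its F value (|log2 fold change| over root F). The common biological coefficient of variation was 18.5%. DESeq2 1.42.0, limma-voom 3.58.1, other scalings and filters, a replicate block and leaving out each library were alternatives. For the companion lists these alternatives were added after the data were seen. The pipeline was tested on simulated data in which no library was set apart. That test does not cover replicates as uneven as these. Positions and promoters come from RefSeq (GRCh38.p14), transcript lengths, exon overlaps and pseudogene names from GENCODE 29.

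All members were accounted for. Values per library are given for members past the threshold, the 4 largest absolute log2 fold changes and the 2 highest CPM of each set, and some others chosen after their values were seen. Up to 2 called genes with a mean of at least 1 CPM were named per companion list. The members and lists were chosen with earlier results of these data known. Equal replicate numbers were not taken as pairs.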

Additional observations from a re-analysis of the deposited data

How the results depend on the processing

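The direction and side of the threshold of all 36 members were kept with DESeq2 size factors, unscaled library totals, no filter and limma-voom. The count of called genes, 395, became 649 with no filter, 252 above a mean of 5 CPM, 1135 in DESeq2 and 16 to 789 with 1 library left out. The cytosolic genes called higher, 2, were 4 in DESeq2, which added MARS1 and SARS1 (3.09% of all genes called higher), and 0 to 3 with 1 library left out: 0 without DMSO 2 or DHA 1, 1 without DMSO 3 and 3 without DHA 3. The mitochondrial genes gave 0 calls in every fit run. With 1 library left out, the cytosolic median ran from 0.21 to 0.34, the mitochondrial one from -0.046 (without DMSO 1) to 0.13 and their difference from 0.19 to 0.28. Sign changes concerned genes without a call. EARS2 went from 0.02 to -0.011 with upper-quartile scaling and to -0.00044 above 5 CPM. With 1 library left out, the log2 fold change ran from -0.10 to 0.16 for EARS2, -0.026 to 0.35 for VARS1, -0.059 to 0.16 for LARS2, -0.25 to 0.35 for MARS2, -0.030 to 0.15 for TARS2, -0.055 to 0.14 for YARS2, -0.084 to 0.052 for AARS2, -0.11 to 0.042 for WARS2, -0.25 to 0.057 for NARS2, -0.00377 to 0.20 for VARS2 and -0.035 to 0.30 for SARS2. The causes were not tested. With the replicate number as a block, 1272 genes were called and 5 cytosolic genes were higher. MARS1, SARS1 and YARS1 were added (adjusted p = 0.0347, 0.0297 and 0.0470 by edgeR), and XPOT also passed (0.0317). Equal numbers correlated in their deviations by 0.26, 0.12 and -0.04, and unequal numbers by -0.26 to 0.12. These few correlations cannot decide whether libraries of equal number shared a batch, and the labels do not state it. The log2 fold changes of the cytosolic members had standard errors of 0.11 to 0.23. At this spread, most of them did not pass the threshold adjusted over all genes in edgeR. Of the 19, 9 had an unadjusted p under 0.05 with DHA higher, where 9.59% of all genes did.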
